A study of Mus musculus with 8 samples.

Results

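Necab1 and 9 other genes of neuronal EF-hand calcium binders were followed in Neuro2a cells, a mouse neuroblastoma line derived from the AJ strain. The members were chosen by gene symbol: Necab1, Necab2 and Necab3, the calcium buffers Calb1, Calb2 and Pvalb, and the neuronal calcium sensors Hpca, Hpcal1, Ncs1 and Vsnl1. Necab1 was placed at the head of the set because its difference between the phenotypes was already known to be large, so its values are a description and carry no test. Each member had 1 transcript cluster (the group of probes the array assigns to a transcript) that carries its symbol alone, so all 10 were measured, of 19938 genes with such a cluster and 35556 clusters in all. Hpcal1 also appears in 2 clusters that it shares with other genes, which were not used.

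Of the 8 arrays, 4 held RNA of attached, anchorage dependent (AD) cells and 4 that of anchorage independent (AI) tumorspheres. The labels call the replicates biological whereas the methods speak of replicate hybridizations, so p-values measure the spread between these samples, which may be technical. AD cells grew attached in DMEM with 10% fetal bovine serum. AI cells grew detached in NeuroCult neural stem cell medium to which EGF (20 ng/ml), heparin (2 µg/ml) and bFGF (10 ng/ml) had been added. Attachment and medium therefore change together and cannot be told apart, and both phenotypes are of a single cell line, so the arrays speak for this line alone.

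EF hands are helix-loop-helix folds that hold a calcium ion in the loop. Calbindin (Calb1), calretinin (Calb2) and parvalbumin (Pvalb) bind calcium as buffers and are classic markers of classes of neurons. Hippocalcin (Hpca), Hpcal1, Ncs1 and Vsnl1 carry a myristoyl group, and in several of them calcium exposes it and moves the protein to membranes, so that they act as sensors. The Necab proteins join EF-hand motifs at the N terminus with a monooxygenase-like domain and are found mainly in neurons of the brain and spinal cord.

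The values are log2 array signals, which do not compare one gene with another, since each cluster has its own probes. To see whether a gene stood above background, its signal was set beside the 95th percentile of 1210 clusters of olfactory and vomeronasal receptor genes, which tissues other than sensory epithelium mostly lack. This receptor reference lay at 5.49 to 5.77 log2 on AD arrays and at 5.63 to 5.74 on AI arrays. Array medians were slightly higher, at 5.82 to 5.92 log2 for AD and 5.92 to 5.99 for AI. AD replicate 4 lay farthest from its group, with a root mean square distance of 0.241 log2 to the mean of the other AD arrays, against 0.152 to 0.201 log2 for the other 7 arrays. All 12 measured markers of sympathetic neuroblasts, Phox2a, Hand2 and Dbh among them, were above the reference on all 8 arrays. Of 7 measured markers of Schwann cells and glia, Erbb3 and Mbp were above it on every array and the other 5, Sox10 and Gfap included, on none.

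Necab1 signal in AD cells was 5.13 times that in AI cells. It was 8.78, 8.62, 8.78 and 8.64 log2 in AD replicates 1 to 4, and 6.40, 6.33, 6.36 and 6.30 log2 in AI replicates 1 to 4. The lowest AD array thus lay 2.22 log2 above the highest AI array. Mean signal was 8.71 ± 0.09 log2 for AD and 6.35 ± 0.04 for AI (SD, n = 4 per phenotype), which differ by 2.36 log2. Replicates of Necab1 were tight, with a pooled SD of 0.07 log2 against a median of 0.11 log2 over all clusters. The AI signal was low but above the receptor reference and above the array median on all 4 AI arrays, so that the ratio has a measured level on both sides. Among the 19938 genes, Necab1 ranked 4 by its increase in AD cells. Without AD replicate 4 the difference was 2.38 log2. Of 12 measured markers of the sympathetic neuroblast, 4 were called higher in AD cells (thresholds are given with the tests of the other members). These were Dbh, Mycn, Phox2a and Th, with 3.01, 1.81, 1.13 and 0.60 log2. None was called lower, where 3.45% of genes with a mean signal above the reference were called higher and 4.01% lower. At an adjusted p under 0.05 and any fold, 6 of the 12 passed toward AD cells, where 17.8% of genes with a mean signal above the reference did. The 2 that passed toward AI cells were Chgb and Gata2, with -0.49 and -0.23 log2, where 17.2% of genes with such a mean did. The part of these markers in the difference of Necab1 was not tested.

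**Figure D1:**
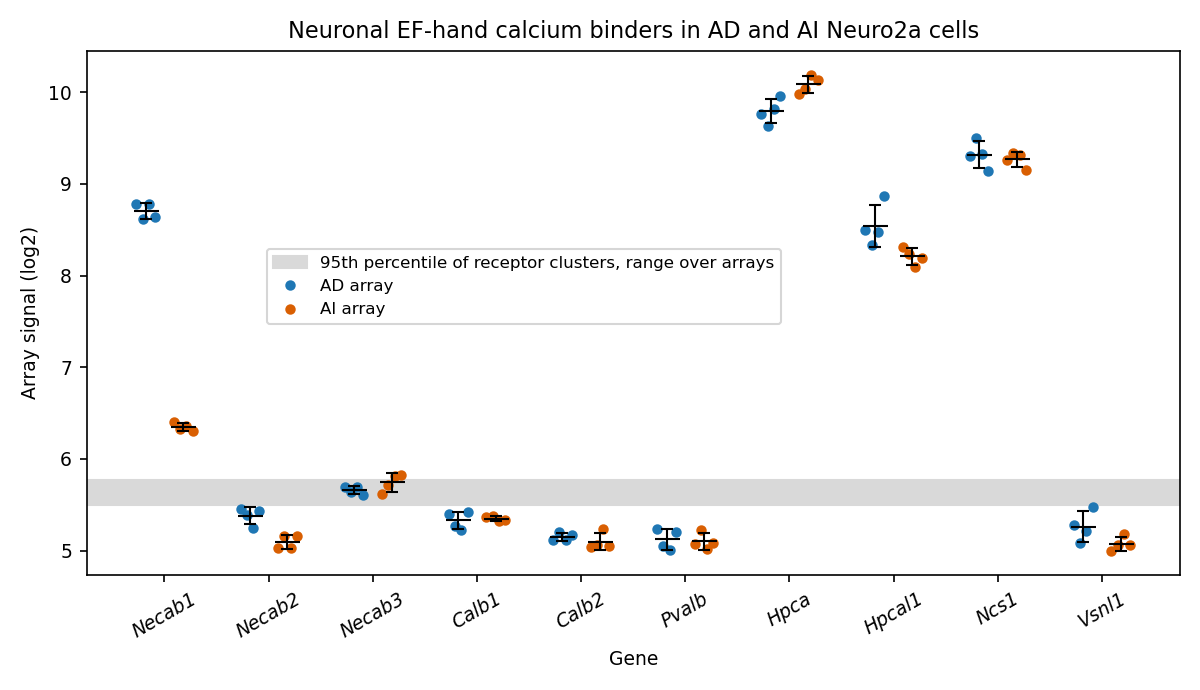
Array signal (log2, vertical axis) of the 10 genes (horizontal axis) in AD (blue) and AI (orange) Neuro2a cells. Dots are single arrays (4 for each phenotype), black bars are means with SD, and the grey band is the range over the 8 arrays of the receptor reference. Necab1 has a mean of 8.71 log2 for AD and 6.35 for AI, whereas the dots of Necab2, Calb1, Calb2, Pvalb and Vsnl1 lie at or under the band in both phenotypes.

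Differences of the other members were tested in limma, fitted over all clusters with Benjamini-Hochberg adjustment, and a gene was called at an adjusted p under 0.05 with a fold of at least 1.5. None of the 9 was called, where 3.93% of all clusters (1.39% higher and 2.53% lower in AD cells) and 4.41% of all genes (2.02% and 2.4%) were. The unmoderated analysis of variance that the methods name called none of the 9 either. In limma 3 of them (Necab2, Hpca and Hpcal1) had an unadjusted p under 0.05. So had at least 18.1% of all clusters and 21.7% of all genes, the shares that passed even after adjustment. At an adjusted p under 0.05 and any fold 2 of the 9 passed, Necab2 toward AD cells and Hpca toward AI cells, where 18.1% of all clusters (8.5% higher and 9.62% lower in AD cells) and 21.7% of all genes (11% and 10.7%) did. Dim genes seldom pass, and among the 11433 genes with a mean signal above the receptor reference 7.45% were called (3.45% higher and 4.01% lower) and 35% passed at any fold (17.8% and 17.2%). Of the 4 members other than Necab1 with such a mean (Necab3, Hpca, Hpcal1 and Ncs1), Hpca passed. The median difference of the 9 was 0.05 log2, against 0.01 log2 over all genes. Of the 10 members, 4 were above the receptor reference on all 8 arrays (Necab1, Hpca, Hpcal1 and Ncs1), 5 on no array, and Necab3 on 6 arrays.

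Of the paralogs, Necab2 was below the receptor reference and Necab3 lay close to it, and neither was called. Necab2, which is known to bind an adenosine receptor and the glutamate receptor mGluR5, had 5.46, 5.39, 5.25 and 5.43 log2 in AD replicates 1 to 4 and 5.03, 5.16, 5.02 and 5.15 log2 in AI replicates 1 to 4. Every AD array was above every AI array, with a gap of 0.09 log2, but every array of both phenotypes was below the receptor reference. The difference was 0.29 log2 (95% interval 0.14 to 0.44, adjusted p = 0.0140 from limma), a fold of 1.22 that was not called, and at this signal it cannot be read as a level of Necab2. Necab3, which binds the neuronal adaptor X11L (Apba2), had 5.69, 5.64, 5.69 and 5.61 log2 in AD cells and 5.61, 5.72, 5.82 and 5.83 in AI cells. These ranges overlapped and lay around the reference, and the difference was -0.09 log2 (95% interval -0.22 to 0.05, adjusted p = 0.409 from limma).

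None of the 3 calcium buffers that mark neuron classes was above the receptor reference on any array. Calb1 had 5.40, 5.26, 5.23 and 5.43 log2 in AD cells and 5.36, 5.38, 5.32 and 5.33 in AI cells, with the AI values inside the AD range. Calb2 had 5.12, 5.20, 5.11 and 5.17 log2 in AD cells and 5.04, 5.06, 5.24 and 5.05 in AI cells, where AI replicate 3 alone lay above all AD arrays. Pvalb had 5.24, 5.05, 5.00 and 5.20 log2 in AD cells and 5.07, 5.23, 5.02 and 5.08 in AI cells, again overlapping. The differences were -0.02 log2 for Calb1 (95% interval -0.15 to 0.12, adjusted p = 0.879 from limma), 0.05 log2 for Calb2 (-0.08 to 0.19, adjusted p = 0.628) and 0.02 log2 for Pvalb (-0.14 to 0.19, adjusted p = 0.879). The sign for Calb1 turned to 0.058 log2 after centring of arrays on their medians and to 0.0076 log2 after quantile normalization. Of 10 measured markers of GABAergic interneurons, the cells in which these buffers are best known, the glutamate decarboxylases Gad1 and Gad2 and reelin (Reln) were above the reference on no array, while Slc32a1 was above it on 3 AD arrays, Sst on 1 AD array, and the transcription factor Lhx6 on all 8 arrays. Of the list 4 genes were called, where 4.41% of all genes and 7.45% of genes with a mean signal above the reference were. Npy, Dlx2 and Dlx1 were above the reference on all 8 arrays and higher in AD cells by 0.75, 0.67 and 0.62 log2. Vip was lower (-1.17 log2), with its AD arrays all below the reference and its AI arrays all above it.

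**Figure D2:**
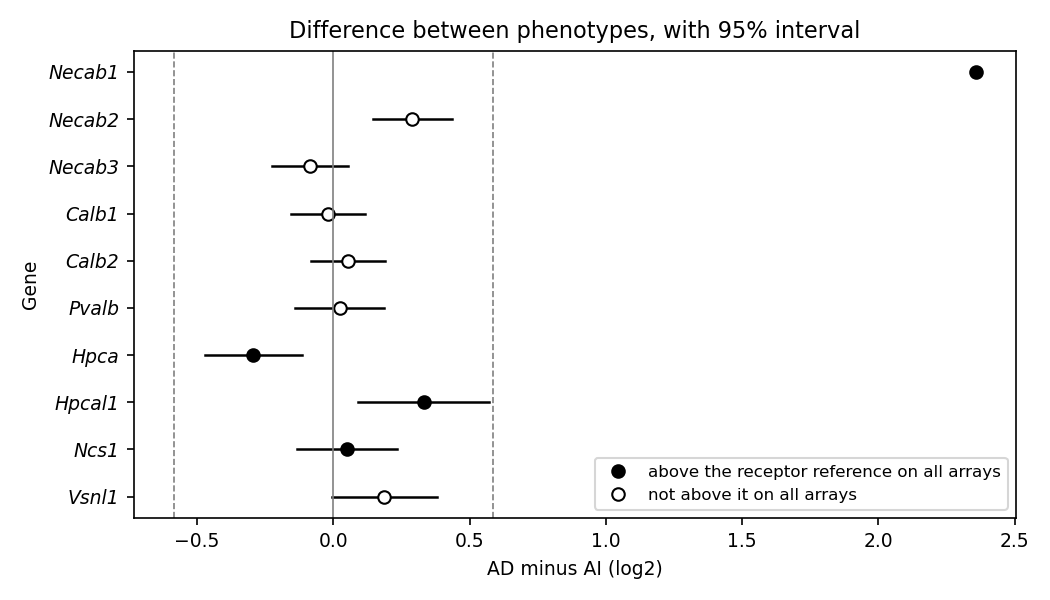
Difference AD minus AI (log2, horizontal axis) for each of the 10 genes (vertical axis). Lines are 95% intervals from limma, left out for Necab1, which was chosen for its difference, dashed lines mark 1.5-fold, and open circles are genes that were not above the receptor reference on all arrays. Necab1 lies at 2.36 log2 and each of the others between -0.29 and 0.33 log2, with its interval inside the dashed lines.

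Hpca, Hpcal1 and Ncs1 were well above the reference in both phenotypes, and their differences were small. Hpca, a sensor of hippocampal pyramidal neurons, had 9.76, 9.64, 9.82 and 9.95 log2 in AD cells and 9.99, 10.03, 10.19 and 10.14 in AI cells. All AI arrays lay above all AD arrays, by a gap of 0.03 log2. The difference of -0.29 log2 is 1.23-fold toward AI cells (95% interval -0.47 to -0.12, adjusted p = 0.0307 from limma) and was not called for its size. The adjusted p ranged from 0.00990 without AD replicate 4 to 0.0895 without AI replicate 3, and passed 0.05 in 8 of 15 alternative fits.

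Hpcal1, a close relative of hippocalcin, went the other way by about the same amount. Its AD arrays were at 8.50, 8.34, 8.47 and 8.86 log2 and its AI arrays at 8.31, 8.24, 8.10 and 8.19 log2, with no overlap and a gap of 0.03 log2. AD replicate 4 was the highest, and AD cells had the wider spread (SD 0.22 against 0.09 log2, n = 4 each). The difference was 0.33 log2 (95% interval 0.09 to 0.57, adjusted p = 0.0609 from limma), and 0.23 log2 without AD replicate 4 (adjusted p = 0.0485). Among the 9 members other than Necab1, groups of arrays did not overlap for 3 (Necab2, Hpca and Hpcal1), where this held for 22.1% of all clusters, 26.9% of genes and 41.1% of genes with a mean signal above the reference.

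Ncs1, the founding and most widespread neuronal calcium sensor, had 9.31, 9.50, 9.33 and 9.14 log2 in AD cells and 9.26, 9.34, 9.32 and 9.15 in AI cells. The AI arrays lay inside the AD range. The difference of 0.05 log2 (95% interval -0.13 to 0.23, adjusted p = 0.743 from limma) limits a change of Ncs1 to 1.18-fold at most within the interval. Vsnl1 (visinin-like 1), which has been studied in neuroblastoma, had 5.28, 5.08, 5.21 and 5.48 log2 in AD cells and 5.00, 5.06, 5.18 and 5.06 in AI cells. These overlapped and were below the reference on every array, with a difference of 0.19 log2 (95% interval -0.01 to 0.38, adjusted p = 0.179 from limma).

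Calcium genes outside the set were counted in 7 further lists, of which 102 genes were measured. In these lists 1 gene was higher in AD cells, 7 were lower and 94 were not called, or 7.84% called. The share was 3.93% over all clusters, 4.41% over all genes and 7.45% over the genes whose mean signal was above the receptor reference. Calls lower in AD cells were 2.4% and calls higher 2.02% over all genes, 4.01% and 3.45% over genes above the reference, and 2.53% and 1.39% over all clusters. The part of all called clusters that was lower in AD cells went from 64.5% to 47.0% when arrays were centred on their medians. With that centring 5 of the 102 were called.

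Hpcal4, a further hippocalcin relative, was the list gene that rose in AD cells. Its arrays were at 7.02, 7.18, 7.22 and 7.33 log2 in AD cells and 6.20, 6.46, 6.47 and 6.10 in AI cells, with no overlap. The difference was 0.88 log2 or 1.84-fold (standard error 0.10, adjusted p = 0.000450 from limma). The other 7 measured genes of that list of neuronal calcium sensors and Kv channel interacting proteins were not called, with a list median of -0.03 log2. At any fold Kcnip4, a subunit that tunes A-type potassium channels, had -0.30 log2 and the guanylate cyclase activator Guca1a had -0.28 log2, both toward AI cells, and Kcnip4 was above the reference on 1 AD array and 3 AI arrays. Kcnip4 and Guca1a were 2 of the 8 measured genes of the list, where 10.7% of all genes passed toward AI cells. Among genes with a mean signal above the reference 17.2% did.

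**Figure D3:**
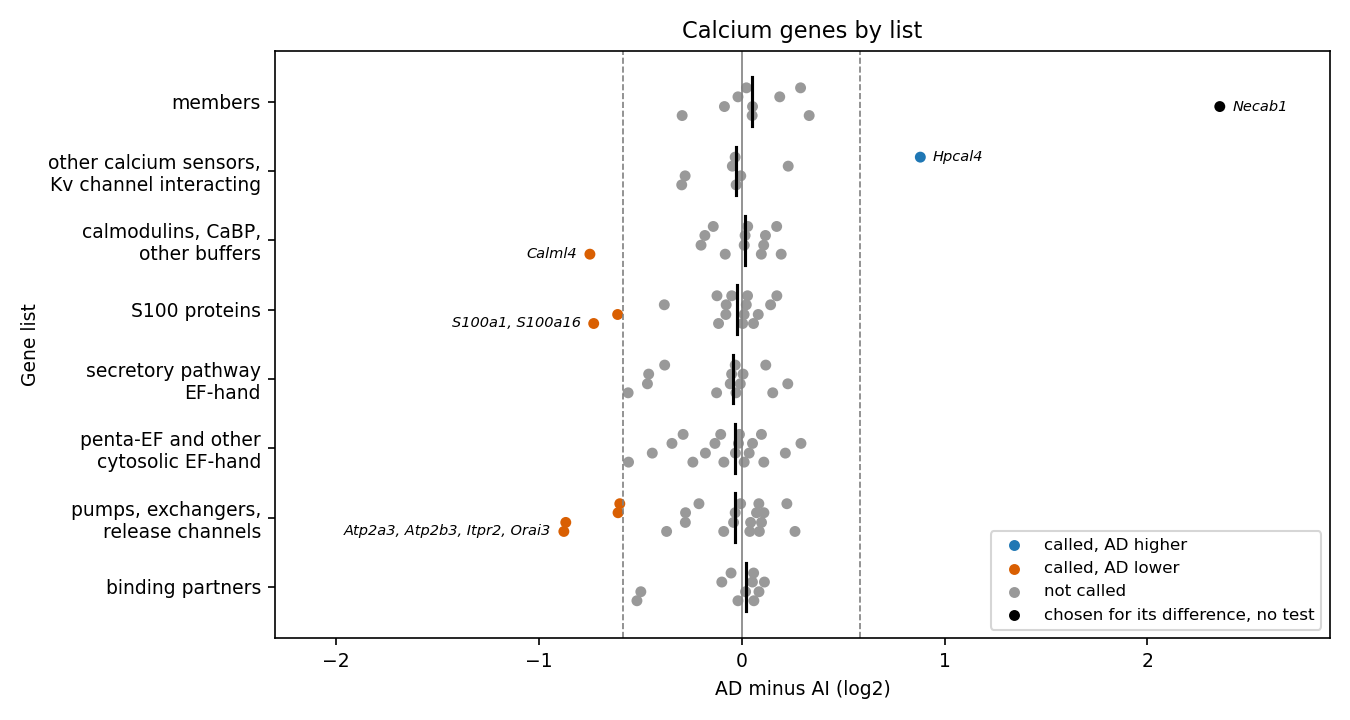
Difference AD minus AI (log2, horizontal axis) for the measured genes of each list (vertical axis), with black bars at list medians and dashed lines at 1.5-fold. Genes called higher in AD cells are blue, genes called lower are orange, and Necab1, chosen for its difference and not tested, is black. Hpcal4 at 0.88 log2 is the called gene on the right, and the list of pumps, exchangers and release channels holds 4 of the 7 on the left.

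In the other EF-hand lists, 3 genes were called, all lower in AD cells. Of 13 calmodulins, CaBP proteins and further buffers, Calml4, a calmodulin-like protein, was lower in AD cells (6.69 ± 0.07 against 7.43 ± 0.07 log2, SD, n = 4 per phenotype, difference -0.75 log2, adjusted p = 6.77e-05 from limma) and 12 were not called. Of 16 S100 proteins, S100a1 and S100a16 were lower in AD cells, with -0.73 and -0.61 log2, and 14 were not called. S100a6, a further S100 protein, passed at any fold with -0.38 log2. With it 3 of the 16 passed, all toward AI cells, where 10.7% of all genes did. Among genes with a mean signal above the reference 17.2% did. None of 14 EF-hand proteins of the secretory pathway was called. At any fold 4 passed, all toward AI cells, where 10.7% of all genes and 17.2% of genes with a mean signal above the reference did. The 4 were Rcn3 and Nucb1, which bind calcium in the endoplasmic reticulum and Golgi, with -0.56 and -0.47 log2, and the matrix proteins Sparc and Spock2 with -0.46 and -0.38 log2. None of 19 penta-EF and other cytosolic EF-hand proteins was called. At any fold Efhd2 passed toward AD cells with 0.29 log2, and Gca, the calpains Capn1 and Capn2, the mitochondrial uptake regulator Micu2 and Efhd1 passed toward AI cells with -0.56, -0.44, -0.24, -0.34 and -0.29 log2, where Efhd1 was below the reference. Over these 5 EF-hand lists, 1 of 70 genes was called higher and 3 lower, or 5.71%, which lies between the 4.41% of all genes and the 7.45% of genes with a mean signal above the reference.

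Of 21 measured calcium pumps, exchangers and release channels, 4 were lower in AD cells and none was called higher, where 2.4% of all genes and 4.01% of genes with a mean signal above the reference were called lower. Atp2a3, the SERCA3 pump that loads the endoplasmic reticulum, had 7.01, 7.28, 7.13 and 7.45 log2 in AD cells and 8.09, 8.09, 8.17 and 8.03 in AI cells, a difference of -0.88 log2 (standard error 0.09, adjusted p = 0.000256 from limma). Atp2b3, a plasma membrane calcium pump of neurons, had 7.62, 7.77, 7.59 and 7.80 log2 against 8.56, 8.66, 8.54 and 8.49 log2, a difference of -0.87 log2 (standard error 0.07, adjusted p = 6.45e-05 from limma). In both the arrays of the phenotypes were far from overlapping. Itpr2, an IP3 receptor that releases stored calcium, had -0.61 log2 and Orai3, a store-operated calcium channel subunit, had -0.60 log2. The last 2, like S100a16, were close to 1.5-fold and fell short of it under median centring, with -0.53, -0.53 and -0.54 log2 for Itpr2, Orai3 and S100a16. Atp2a2 and Atp2b1, pumps that most cells use, had 0.07 and 0.10 log2 and were not called. At any fold Atp2c1, a Golgi calcium pump, passed toward AD cells with 0.26 log2 (adjusted p = 0.0144 from limma), and the exchanger Slc8a1 and the IP3 receptor Itpr3 toward AI cells with -0.28 and -0.37 log2. With the 4 called genes included, 1 of the 21 passed at any fold toward AD cells and 6 toward AI cells. The shares were 11% and 10.7% of all genes, and 17.8% and 17.2% of genes with a mean signal above the reference. The list median was -0.03 log2.

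Of 11 measured genes of known binding partners of the members, none was called and 2 passed at any fold, both toward AI cells. Toward AI cells 10.7% of all genes and 17.2% of genes with a mean signal above the reference passed. Apba1, a neuronal adaptor of the X11 family, had -0.50 log2 and Ric8a, the chaperone and exchange factor for G protein alpha subunits that Ncs1 binds, had -0.52 log2 (adjusted p = 0.00377 and 0.000345 from limma), both toward AI cells and under 1.5-fold. Syt1, the calcium sensor of vesicle release, which Necab1 is reported to bind, was at 11.39 log2 in AD cells and 11.33 in AI cells, a difference of 0.06 log2. Apba2, Grm5, Drd2, Il1rapl1 and Chrna4 were above the reference on no array, and these include Grm5, which encodes the mGluR5 partner of Necab2, and Apba2, the partner of Necab3.

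The genes whose profile over the 8 arrays was nearest to that of Necab1, after each gene's own mean was subtracted, were Nnat, Sctr, Id3, Mycn and Myrip. The Euclidean distance to Necab1 was 0.548 log2 for Nnat, an imprinted proteolipid that affects calcium stores, 0.686 for the secretin receptor Sctr, 0.788 for Id3, 0.793 for Mycn and 0.885 for Myrip, a linker in granule transport, out of 19937 genes compared. The distances measure above all a step between the phenotypes of like size, and with 8 arrays in 2 groups they say little of how the genes vary within a phenotype. The genes differed there: in AD replicate 4 Id3 was at 6.37 log2 and Nnat at 7.13 log2, below their other AD arrays, whereas Necab1 at 8.64 log2 was inside its AD range. Id3 and Nnat were below the receptor reference on the 4 AI arrays, unlike Necab1.

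**Figure D4:**
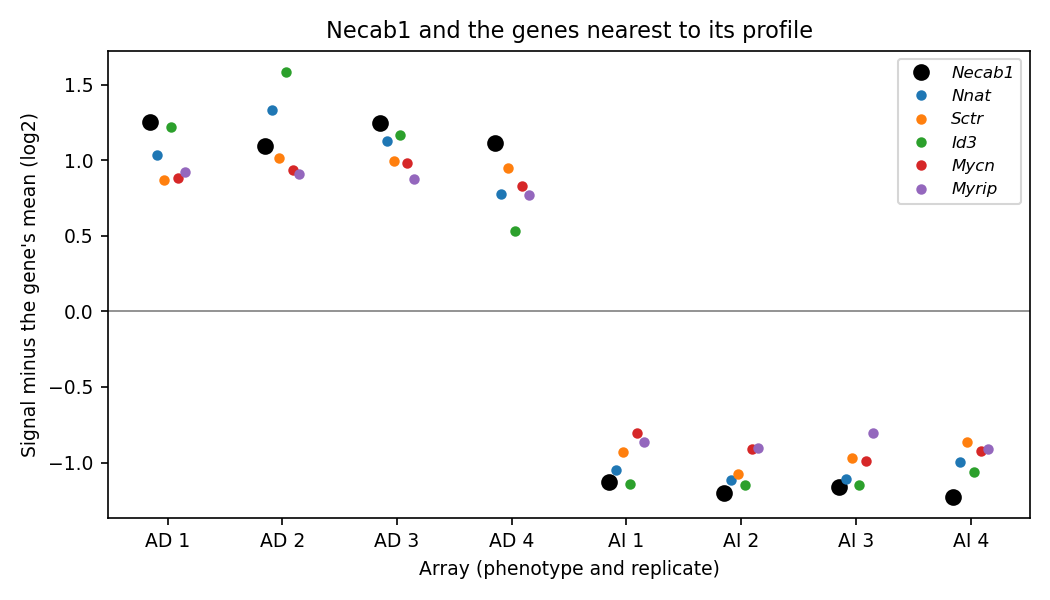
Signal minus the gene's own mean over the 8 arrays (log2, vertical axis) for Necab1 (large black dots) and the 5 genes nearest to it, in each array (horizontal axis). All 6 genes step between the 4 AD and the 4 AI arrays, and Id3 and Nnat drop toward the other phenotype in AD replicate 4 whereas Necab1 stays with its AD arrays.

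In the RefSeq order of protein-coding genes, Necab1 lies between Pip4p2 and Otud6b on one side and Tmem64 and Calb1 on the other, with Gm11837, which has no cluster of its own symbol, beside it. These neighbours were looked up after their values could be seen. Otud6b, a deubiquitinase, had 8.71 ± 0.07 against 8.23 ± 0.11 log2 (SD, n = 4 per phenotype), a difference of 0.48 log2 (adjusted p = 0.00143 from limma). Tmem64, a membrane protein tied to calcium signalling, had 9.15 ± 0.12 against 8.74 ± 0.16 log2, a difference of 0.41 log2 (adjusted p = 0.0137 from limma), and Pip4p2, a phosphoinositide phosphatase, had 0.29 log2 (adjusted p = 0.0105 from limma). Thus 3 of the 6 nearest measured genes passed toward AD cells at any fold, where 11% of genes and 17.8% of genes with a mean signal above the reference did, all 3 under 1.5-fold. Lrrc69, Decr1 and Calb1 did not pass, with differences of -0.01, 0.18 and -0.02 log2, and Lrrc69 and Calb1 were above the reference on no array.

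**Figure D5:**
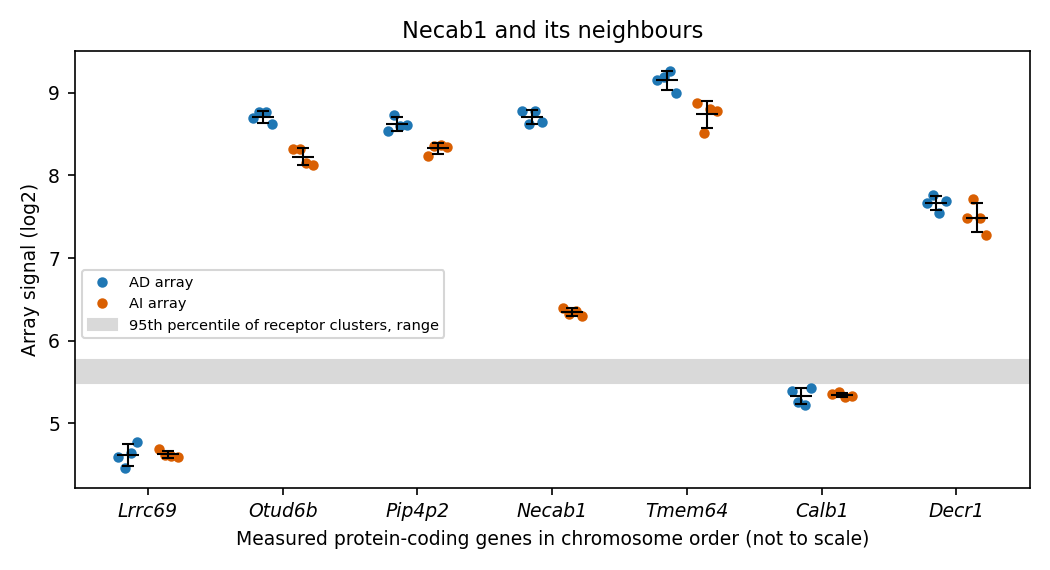
Array signal (log2, vertical axis) of Necab1 and the 3 nearest measured protein-coding genes on each side, in chromosome order and not to scale (horizontal axis). Dots are single arrays (4 for each phenotype), black bars are means with SD, and the grey band is the range of the receptor reference. The step of Necab1 is 2.36 log2, and those of Otud6b, Tmem64 and Pip4p2 are 0.48, 0.41 and 0.29 log2 in the same direction.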

How the data were processed

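RNA from 8 Neuro2a samples was hybridized to Affymetrix mouse gene arrays, 1 array per sample. The deposited values are log2 signals per transcript cluster that the authors made by background correction and normalization (GCRMA in Partek 6.5, per the submitters' processing notes), and they were used as deposited. The genome build is not given in the sources used here. Of 35556 clusters, 21789 carry a single symbol, of which 21698 were matched by gene number to RefSeq (GRCm38.p6), 12146 none that could be used and 1621 more than 1. The brightest cluster stands for a gene. Authors' fold changes and p-values in the supplement were not used.

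AD was compared with AI in limma 3.58.1 (R 4.3.3; lmFit, eBayes, no covariate) over all clusters. Tables and figures used Python 3.11.15, pandas 2.3.3, numpy 2.4.6, scipy 1.17.1 and matplotlib 3.10.9. Tested on simulated data of the AD and AI arrays (35556 clusters), the fit recovered 88% of clusters changed 1.75-fold, 86% at 2-fold, 98% at 4-fold and 100% at 8-fold, with 5 false calls. The simulation gave each cluster independent normal noise, changed few clusters and held no shift shared by a whole array. Its false calls are therefore no error rate for the real arrays. Arrays give no counts, so their number limits the precision. The members and lists were chosen with earlier results of these data known. Named genes are the members, up to 3 called genes per direction of each other list, those in counts of 5 or fewer, and the 5 genes nearest to Necab1. Alternatives were quantile normalization, median centring, a filter on dim clusters (mean signal under the 40th percentile), the unmoderated analysis of variance of the methods, limma with array weights, with a variance trend or blocked on replicate number, other thresholds and each array left out in turn. Blots, flow cytometry and tumors were not analysed here.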

Additional observations from a re-analysis of the deposited data

Results flagged for a closer look

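Single arrays stood apart from the other 3 of their group in 4 of 56 groups of arrays looked at, where chance gives about 1 in 20. Calb2 was at 5.24 log2 in AI replicate 3, above the other AI arrays, the next of which was at 5.06 log2, and all were below the receptor reference. Itpr2 was at 6.39 log2 in AD replicate 4, above the other AD arrays. Orai3 was at 8.75 log2 in AI replicate 3, above the other AI arrays, and without this array its difference was -0.55 log2 and no longer 1.5-fold. Id3 was at 4.78 log2 in AI replicate 4, above the other AI arrays and below the reference.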

How the results depend on the processing

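Necab1 had a difference of 2.33 to 2.43 log2 in the 15 alternative fits, the highest under median centring, 2.43 log2, which moved it by more than its replicate SD. No alternative fit called any of the 9 other members. At an adjusted p under 0.05 and any fold 2 of the 9 passed in the main fit (3 with Necab1, whose pass was fixed by its choice). Under median centring Hpcal1 and Vsnl1 passed as well (adjusted p = 0.0218 and 0.0331 from limma). Among alternative fits that held the gene, Necab2 passed in 14 of 14, Hpca in 8 of 15, Hpcal1 in 5 of 15 and Vsnl1 in 1 of 14. Calb1 turned from -0.02 to 0.058 log2 under median centring and 0.0076 after quantile normalization, and ranged from -0.051 to 0.015 with 1 array left out, being above 0 without AD replicate 2 or 3. With 1 array left out, Pvalb ranged from -0.016 to 0.065 log2, below 0 without AD replicate 1, AD replicate 4 or AI replicate 3, and Ncs1 from -0.010 to 0.11 log2, below 0 without AD replicate 2. None of these was called. Of the 102 other calcium genes, 8 were called, 5 under median centring, none (0) at a fold of at least 2 and 26 at an adjusted p under 0.05 at any fold; over all clusters 1396 were called, 254 at a fold of at least 2 and 6444 at any fold. The 3 called calcium genes lost under median centring, which shifts all differences by the same amount, were Itpr2, Orai3 and S100a16. Quantile normalization took Itpr2 to -0.54 and S100a16 to -0.53 log2. Itpr2 had -0.57 log2 without AI replicate 4, S100a16 -0.57 and -0.55 without AD replicate 2 and AI replicate 2, and Orai3 -0.57 and -0.55 without AD replicate 3 and AI replicate 3, all under 1.5-fold. The cause was not tested. Leaving out dim clusters removed Necab2, Calb1, Calb2, Pvalb and Vsnl1, so they had no value there, and no member had a second single-symbol cluster to try. With the replicate number as a block, 1352 clusters were called and none of the 9 members other than Necab1. Deviations of same-numbered AD and AI arrays from their group means had correlations of -0.112, 0.078, 0.00476 and -0.175 over clusters, so no clear shared deviation was seen. These correlations cannot tell whether same-numbered samples were handled together. Signal near background limits what can be said of 6 members: Necab2, Necab3, Calb1, Calb2, Pvalb and Vsnl1.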
